A study of Mus musculus with 12 samples.

Results

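Fibroblasts sorted from mouse mammary tumours were compared by gene expression, with the PDGFRa-positive populations m2cafneg and m2cafpos on one side and the populations icaf and vcaf on the other. A gene was taken as a member when both m2caf populations lay above, or both lay below, both icaf and vcaf, with an adjusted p under 0.05 in each of the 4 pairwise contrasts. Of 15456 genes tested, 348 were higher and 221 were lower by this rule, 569 in all. The comparison was chosen because the cell cycle inhibitor genes Cdkn2a and Cdkn2b show this pattern, so their own values describe it and add no support to it.

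The tumours came from 3 FVB mice of the MMTV-PyMT model, aged 10 weeks and untreated, numbered 27, 30 and 31. In this transgenic model mammary epithelial cells express the middle T oncogene of polyoma virus from a viral mammary promoter, and all 12 libraries share that background, with no tumour-free tissue among them. Digested tumours were sorted for live cells that lack CD45, CD31 and EPCAM and carry PDGFRb. Within these, icaf cells were Ly6C-positive, vcaf cells were Ly6C-negative, CD146-positive and PDGFRa-negative, and the m2caf cells were Ly6C-negative, CD146-negative and PDGFRa-positive, without NCAM (m2cafneg) or with it (m2cafpos). Each mouse gave 1 RNA-seq library of each population, so every population has n = 3 and each side of the comparison has 6 libraries. The title of 1 library spells its population vacf, and it was read as vcaf of mouse 27.

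Cancer-associated fibroblasts are the stromal cells of a tumour that lay down and remodel its collagen matrix. Inflammatory, matrix-producing and vessel-associated kinds have been described in mammary tumours, the last overlapping with pericytes. Cdkn2a and Cdkn2b lie side by side and encode inhibitors of the kinases that start the cell cycle: Cdkn2b gives p15Ink4b, and Cdkn2a gives p16Ink4a and, from another reading frame, p19Arf. A high level of these transcripts is widely used as a mark of senescence, a lasting arrest of division that often comes with the secretion of proteinases, growth factors and cytokines.

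Library depth was 43898839 to 55363203 reads assigned to genes, recovered from the CPM table, and 13413 to 14767 genes reached 1 CPM. Values are CPM, read counts scaled to 1 library total, and folds and tests are on the log2(CPM + 1) scale, which understates the change of weakly expressed genes. For each gene the smallest in size of its 4 log2 fold changes is given as its least difference, with its SE, and the largest of the 4 adjusted p values as its adjusted p. The labelled sort could be read in the libraries: Pdgfra averaged 537 ± 61.05 CPM in m2cafneg, 500.4 ± 3.32 in m2cafpos, 403 ± 44.8 in icaf and 6.73 ± 2.07 in vcaf (SD, n = 3), Mcam (CD146) 9.82 ± 8.67 CPM in m2cafneg, 4.16 ± 1.83 in m2cafpos, 3.44 ± 2.66 in icaf and 269 ± 25.1 in vcaf, and Ncam1 31.1 ± 5.63 CPM in m2cafneg, 585 ± 20.3 in m2cafpos, 96.5 ± 12.2 in icaf and 18.2 ± 2.01 in vcaf. None of the 9 genes of the sort was a member. Transcripts of epithelial cells, which the sort was meant to remove, differed between populations: 20 epithelial markers summed to 6043 to 13048 CPM in m2cafneg and 8370 to 17101 CPM in vcaf, against 707 to 3098 CPM in m2cafpos and 1096 to 3231 CPM in icaf. A gene that follows this split cannot pass all 4 pairs in 1 direction, so that no epithelial marker was a member carries no information. With this sum as a covariate 82 genes stayed higher and 30 lower, while the median SE of the contrast of m2cafneg with icaf rose from 0.188 to 0.298 and that of m2cafpos with vcaf from 0.188 to 0.343. The part of epithelial RNA in single results was not tested beyond this. In bulk libraries fewer cells of a type and less RNA per cell cannot be told apart.

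The 348 higher genes were 2.25% of the genes tested and the 221 lower genes were 1.43%. Their least difference had a median of 1.07 for the higher genes and -0.61 for the lower ones. It was at least 1 in size for 189 higher and 43 lower genes, and at least 2 for 54 and 6. The 6 m2caf libraries lay above the other 6 without overlap for 323 of the 348 higher genes (2.74% of all genes tested had no overlap in this direction), and 340 were higher within each of the 3 mice (4.32% of all genes). Among the 221 lower genes 210 had no overlap (3.15% of all genes) and 219 were lower within each mouse (6.43%). Members were chosen on these same values, so these orders largely follow from the rule and add no support to it. Most were protein-coding genes, 323 of the higher and 204 of the lower ones. A gene was tested if 3 or more libraries reached 1 CPM. Some higher members, among them Cdkn2a, Plk5 and Robo2, reached 1 CPM in m2caf libraries alone, so they were tested only because that side was high. The counts and shares of higher genes include such genes, and their number was not determined. The average gene stood lower in the m2caf libraries, with a median of -0.20 for the mean of both m2caf populations against the mean of icaf and vcaf, and rescaling made this shift smaller. With median-of-ratios scaling the median was -0.02 and the counts were 394 higher and 116 lower, so that the share of higher genes among all members was 77.3% in place of 61.2%. Lower counts were less steady than higher ones: edgeR called 106 lower genes, and 144 and 136 were called without icaf of mouse 27 or 30.

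A difference between the averages of each side was much more common than a difference in all 4 pairs. The mean of m2cafneg and m2cafpos was above the mean of icaf and vcaf for 1662 genes (10.8%) and below it for 4753 (30.8%). This balance depended on the scaling: 2441 genes were higher and 1744 lower with median-of-ratios scaling, 2424 and 1746 with TMM scaling, and 2408 and 1493 with edgeR. Of the 1662 higher genes 348 (20.9%) were members. Another 546 were higher in both pairs with vcaf and passed as higher in neither pair with icaf. For 204 genes both pairs with icaf passed and neither pair with vcaf did. Of the 4753 lower genes 221 (4.65%) were members, while 2206 were lower in both pairs with vcaf and passed as lower in neither pair with icaf. Taken singly, m2cafneg was higher than icaf for 20.9% of all genes tested and lower for 8.77%, and m2cafpos was higher than icaf for 8.86% and lower for 15%. Against vcaf, m2cafneg was higher for 11.3% and lower for 26.6%, and m2cafpos was higher for 12.4% and lower for 55.5%.

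**Figure D1:**
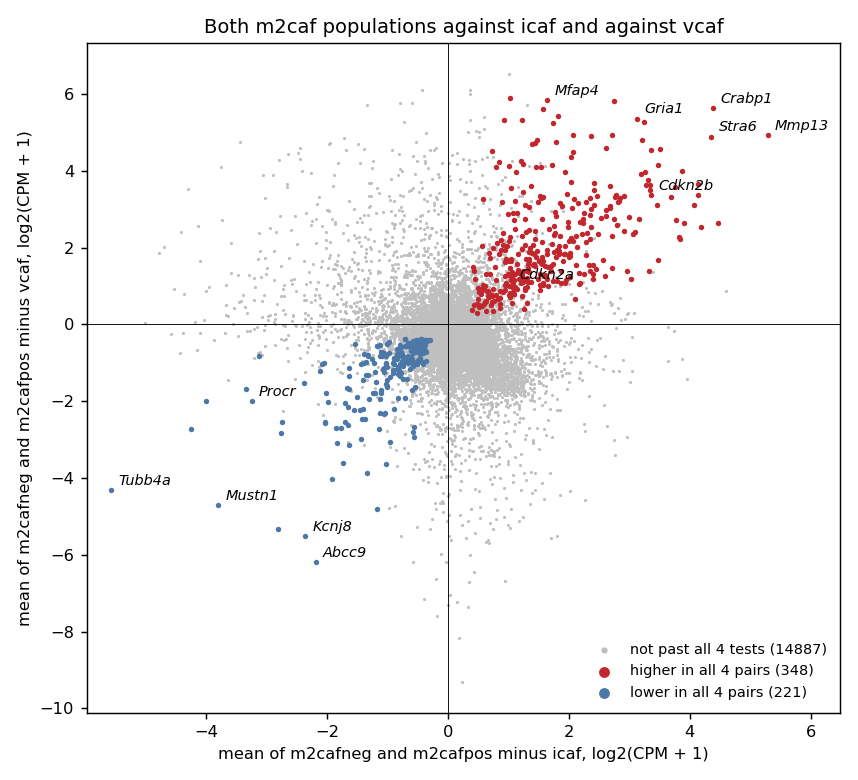
Each point is 1 of the 15456 genes tested. The horizontal axis gives the mean of m2cafneg and m2cafpos minus icaf and the vertical axis the same mean minus vcaf, both as log2(CPM + 1). Red points are the 348 genes higher in all 4 pairs, blue points the 221 lower ones and grey points all others. Members sit in the upper right and lower left corners, with Mmp13 and Crabp1 far from the origin among the higher genes and Tubb4a among the lower ones, while many grey genes lie low on the vertical axis near 0 on the horizontal one.

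The contrast between the m2caf populations was not itself part of the rule, but the rule limits it. A gene high only in m2cafneg and vcaf, or only in m2cafpos and icaf, cannot be a member. The same holds for the contrast of icaf with vcaf. For these contrasts the shares of all genes tested are therefore not a like-for-like baseline. Of the 348 higher genes 78 (22.4%) were higher still in m2cafpos than in m2cafneg, against 3.51% of all genes tested, and 10 (2.87%) were lower, against 22.6% of all genes. Among the 221 lower genes 42 (19%) were lower in m2cafpos than in m2cafneg and 1 (0.452%) was higher. For 260 of the higher and 178 of the lower genes the m2caf populations did not differ past the threshold. Between the populations on the other side, icaf was above vcaf for 111 of the higher genes (13.9% of all genes tested) and below it for 36 (46.1% of all genes). For the lower genes icaf was above vcaf for 21 and below it for 63. Within both m2caf populations mouse 30 gave the lowest value for 137 of the 348 higher genes (39.4%), against 20.4% of all genes tested.

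Cdkn2b (ENSMUSG00000073802, chr4:89306299-89311039, GRCm38) was higher in both m2caf populations than in icaf and vcaf, and the lower of its m2caf means was 9.03 times the higher of the other means. In mice 27, 30 and 31, the order used for all values below, it measured 71.6, 46.6 and 61.4 CPM in m2cafneg, 86.7, 78.03 and 83.3 in m2cafpos, 5.38, 3.24 and 11.3 in icaf and 6.23, 6.23 and 5.29 in vcaf. All 6 m2caf libraries were far above the other 6, and icaf and vcaf overlapped in level. Its least difference was 3.11 ± 0.29 (adjusted p = 2.14e-05), and m2cafpos exceeded m2cafneg by 0.48 ± 0.29, which did not pass (adjusted p = 0.248). These values rest on 2073 to 4802 reads in the m2caf libraries and 165 to 570 in the others.

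Cdkn2a (ENSMUSG00000044303, chr4:89274471-89294653), which ends 11645 bases before Cdkn2b begins, was a higher member on few reads, and its call was less firm. It had 64, 22 and 75 reads in m2cafneg, 115, 105 and 84 in m2cafpos, 6, 6 and 16 in icaf and 0, 7 and 28 in vcaf, or 1.39, 0.495 and 1.42 CPM in m2cafneg, 2.08, 1.95 and 1.91 in m2cafpos, 0.114, 0.118 and 0.317 in icaf and 0, 0.129 and 0.549 in vcaf. The m2cafpos libraries were the highest of all, while m2cafneg of mouse 30 was below vcaf of mouse 31. Its least difference was 0.77 ± 0.22 (adjusted p = 0.0154). Leaving out icaf of mouse 27 or 30, m2cafneg of mouse 27 or 31, or vcaf of mouse 27 ended the call, with adjusted p from 0.0519 to 0.0632, as did edgeR's quasi-likelihood test on the recovered reads (adjusted p = 0.0637) and the epithelial covariate (adjusted p = 0.631). Reads counted per gene cannot tell p16Ink4a from p19Arf. Mtap, the nearest protein-coding neighbour tested beyond Cdkn2a, was not a member (33.4 CPM in icaf, 38.4 in m2cafneg, 38.8 in m2cafpos and 50.02 in vcaf).

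Cdkn1a, which encodes the p21 inhibitor and is the other common transcript mark of arrest, did not share the pattern. It measured 119.7, 124 and 162 CPM in m2cafneg, 184, 176 and 193 in m2cafpos, 87.2, 103 and 110.4 in icaf and 210.1, 190.01 and 151 in vcaf. The vcaf and m2cafpos libraries overlapped and icaf was lowest. Of 26 tested genes of a list of kinase inhibitors and senescence genes, 4 were higher (15.4%, against 2.25% of all genes) and none was lower, and the list's median for the mean contrast was -0.17, against -0.20 for all genes. With median-of-ratios scaling these medians were 0.04 and -0.02. Cdkn2a and Cdkn2b, by which the comparison was chosen, are 2 of the 4. The list summed to 1195 CPM in icaf, 1630 in m2cafneg, 1880 in m2cafpos and 2252 in vcaf. As a sum it was therefore highest in vcaf and did not share the pattern. Glb1, the lysosomal beta-galactosidase, had 147 to 173 CPM in the m2caf libraries and 61.4 to 117 CPM in the others (least difference 0.54 ± 0.15, adjusted p = 0.015). The call of Glb1 ended with median-of-ratios scaling (adjusted p = 0.0678), TMM scaling (0.0553), edgeR (0.0618), the epithelial covariate (0.514) and without icaf of mouse 27 (0.0552) or m2cafneg of mouse 31 (0.0531). Cell cycle and mitosis genes gave no member among 30 tested, and in the mean contrast 16 of them were lower and none higher, against 30.8% and 10.8% of all genes. The count of lower ones was 5 with either rescaling and 4 with edgeR. Of all 15456 genes, 1744 were lower in this contrast with median-of-ratios scaling, 1746 with TMM scaling and 1493 with edgeR, so the share of 30.8% does not apply to those counts. Summed, these genes averaged 517 CPM in icaf, 567 in m2cafneg, 404 in m2cafpos and 1192 in vcaf. The vcaf sum was thus highest, and m2cafneg was not below icaf.

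A list of 34 tested secretory factors tied to senescence held 5 higher genes (14.7%) and 2 lower ones (5.88%, against 1.43% of all genes). The higher ones were 3 matrix metalloproteinases, Mmp13, Mmp10 and Mmp14, and 2 binding proteins of insulin-like growth factors, Igfbp2 and Igfbp4. The lower ones were the inflammatory signals Il6 and Cxcl1. The list summed to 8976 CPM in icaf, 13672 in m2cafneg, 13099 in m2cafpos and 14535 in vcaf. As a sum it was thus lowest in icaf and did not stand higher in the m2caf populations than in vcaf. Igfbp2 measured 19.8, 11.97 and 11.5 CPM in m2cafneg, 111, 85.03 and 47.4 in m2cafpos, 3.49, 3.03 and 4.16 in icaf and 2.703, 2.1995 and 2.195 in vcaf. It was low and even in icaf and vcaf, higher in m2cafneg and higher again in m2cafpos, with no overlap between these 3 levels. Its least difference was 1.72 ± 0.28 (adjusted p = 0.000768), and m2cafpos exceeded m2cafneg by 2.37 ± 0.28 (adjusted p = 0.000548).

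**Figure D2:**
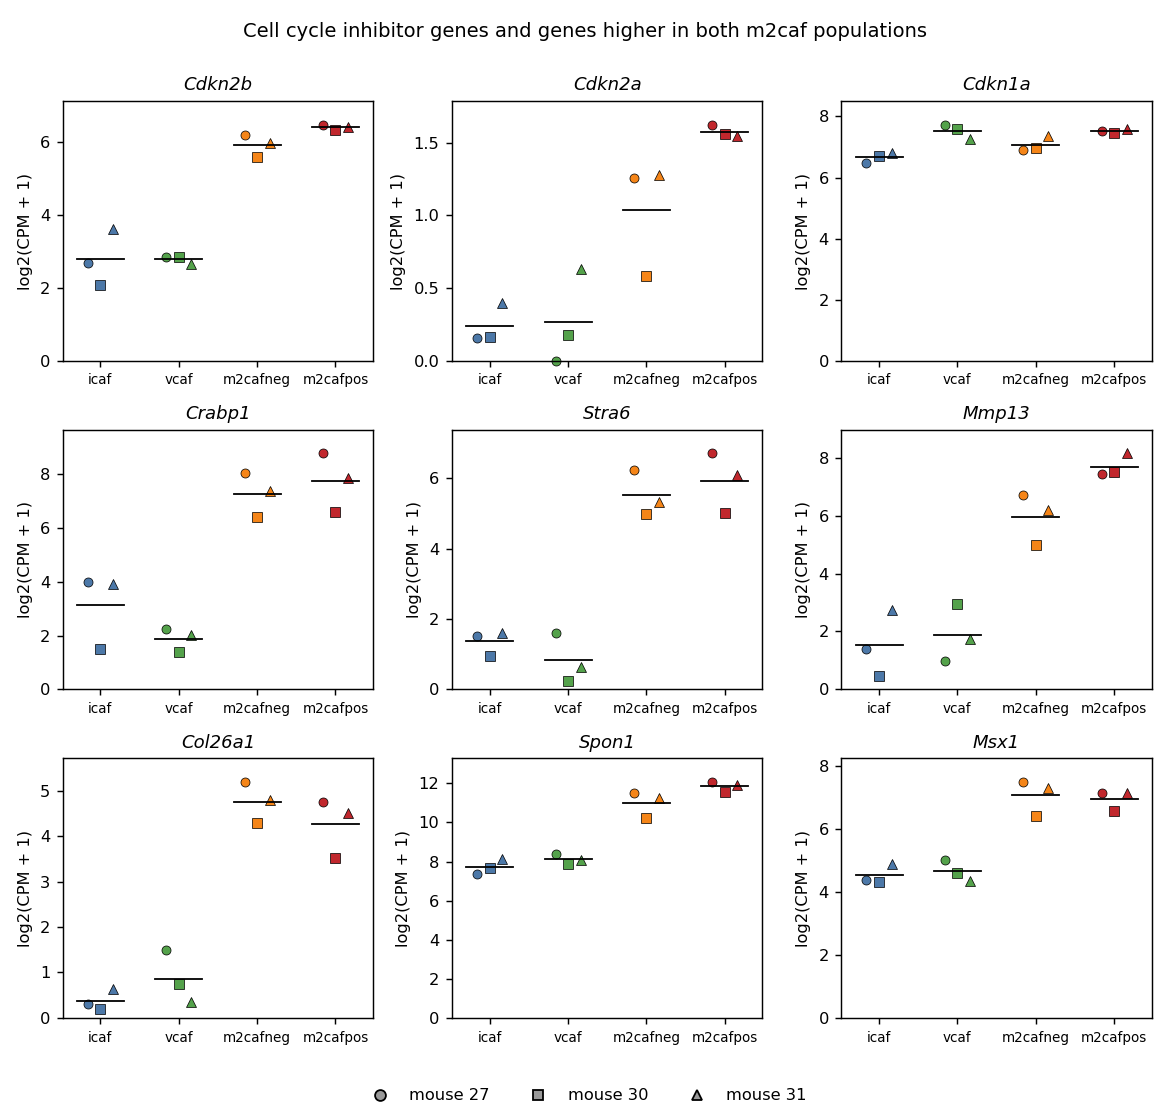
Each panel shows 1 gene as log2(CPM + 1) in the 12 libraries, by population; circles, squares and triangles are mice 27, 30 and 31 and the bar is the mean of 3. Every gene except Cdkn1a and Cdkn2a has all 6 m2caf libraries above all 6 icaf and vcaf libraries, an order that the choice of the leading genes required. Cdkn2a overlaps through 1 m2cafneg library, and Cdkn1a is as high in vcaf as in m2cafpos.

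The widest separations included genes of vitamin A handling. Crabp1 (chr9:54764748-54773110), a cytosolic binding protein of retinoic acid, measured 265, 84.5 and 164 CPM in m2cafneg, 438, 95.4 and 232 in m2cafpos, 14.9, 1.81 and 13.998 in icaf and 3.74, 1.63 and 3.04 in vcaf. Stra6 (chr9:58063788-58153996), the cell-surface receptor that takes up retinol from its carrier protein, measured 73.9, 30.4 and 39.1 CPM in m2cafneg, 103, 30.995 and 67.1 in m2cafpos, 1.88, 0.944 and 2.04 in icaf and 2.06, 0.185 and 0.549 in vcaf. For both genes the m2caf libraries of mouse 27 were the highest and those of mouse 30 the lowest among the 6 m2caf libraries of their population. All 6 were above every icaf and vcaf library. No overlap between the sides was a condition for choosing the 14 higher and 14 lower leading genes, so this order adds no support for any of them. The lower m2caf mean was 16.7 times the higher mean of icaf and vcaf for Crabp1 and 29.5 times for Stra6. Their least differences were 4.15 ± 0.67 (adjusted p = 0.000749) and 4.14 ± 0.46 (adjusted p = 5.42e-05); the call of Crabp1 ended with the epithelial covariate (adjusted p = 0.139) and that of Stra6 did not.

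Several other leading genes encode parts of the extracellular matrix and the basement membrane. Col26a1 (chr5:136741759-136883209), the chain of type XXVI collagen, measured 35.5, 18.5 and 26.8 CPM in m2cafneg, 25.99, 10.5 and 21.9 in m2cafpos, 0.228, 0.138 and 0.554 in icaf and 1.82, 0.665 and 0.274 in vcaf. Lamc3, the laminin gamma 3 chain, measured 44.99, 61.03 and 27.2 CPM in m2cafneg, 38.1, 27.1 and 33.5 in m2cafpos, 1.42, 0.432 and 2.32 in icaf and 3.86, 4.103 and 2.41 in vcaf. Spon1 (chr7:113765998-114043370), which encodes the secreted matrix protein F-spondin, measured 2926, 1193 and 2454 CPM in m2cafneg, 4295, 3017 and 3919 in m2cafpos, 163, 205 and 283 in icaf and 336, 229.8 and 272 in vcaf. In each the lowest m2caf library exceeded the highest icaf or vcaf library, as the choice of the leading genes required. Their least differences were 3.41 ± 0.36, 2.93 ± 0.33 and 2.89 ± 0.30, with adjusted p of 1.05e-05, 1.25e-05 and 1.77e-05. Frem1, a basement membrane protein of the Fraser complex, had 25.1 to 99.4 CPM in the m2caf libraries and 0.887 to 7.8999 CPM in the others (3.05 ± 0.44, adjusted p = 0.000338), and its call ended with the epithelial covariate (adjusted p = 0.0859).

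The remaining leading genes have varied roles. Gria1, a subunit of AMPA-type glutamate receptors, measured 71.4, 46.4 and 66.2 CPM in m2cafneg, 57.6, 71.5 and 76.5 in m2cafpos, 7.12, 3.97 and 9.29 in icaf and 0.1602, 0.813 and 0.902 in vcaf. F5, coagulation factor V, measured 54.2, 35.9 and 49.8 CPM in m2cafneg, 63.5, 44.4 and 48.9 in m2cafpos, 5.79, 3.07 and 4.73 in icaf and 0.0801, 1.31 and 1.22 in vcaf. In both, vcaf was lowest, icaf lay above it and all m2caf libraries were far above icaf. Means of icaf and vcaf were 6.79 and 0.625 CPM for Gria1 and 4.53 and 0.869 CPM for F5. Plk5, a member of the polo-like kinase family, had 6.21 to 48.8 CPM in the m2caf libraries and 0.152 to 0.609 CPM in the others, and Amn, the membrane partner of cubilin, had 17.6 to 53.4 CPM in the m2caf libraries and 1.18 to 3.84 CPM in the others. The least differences were 3.04 ± 0.28 for Gria1, 3.12 ± 0.30 for F5, 3.28 ± 0.40 for Plk5 and 3.08 ± 0.33 for Amn, all with adjusted p of 8.72e-05 or less. Tnfrsf26, a member of the tumour necrosis factor receptor family, had 44.5 to 137 CPM in the m2caf libraries and 3.24 to 13.7 CPM in the others, and Cpxm2, of the carboxypeptidase X family, had 207 to 769.7 CPM in the m2caf libraries and 25.1 to 80.8 CPM in the others. Their least differences were 3.16 ± 0.46 and 3.13 ± 0.41 (adjusted p = 0.000366 and 0.000192), and both calls ended with the epithelial covariate (adjusted p = 0.103 and 0.0556).

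Collagen chain genes were among the lists with the most members. Of 40 tested, 9 were higher (22.5%, against 2.25% of all genes) and none lower, with a list median of 0.88 for the mean contrast. They were the beaded-filament chains Col6a1 and Col6a2, the anchoring-fibril chain Col7a1, and Col8a2, Col13a1, Col16a1, Col24a1, Col26a1 and Col27a1. Col7a1 measured 76.6, 62.5 and 84.1 CPM in m2cafneg, 113, 54.5 and 111 in m2cafpos, 2.11, 2.06 and 4.28 in icaf and 12.3, 12.8 and 11.04 in vcaf. Col13a1, a transmembrane collagen, measured 26.3, 29.3 and 19.9 CPM in m2cafneg, 11.1, 6.71 and 8.25 in m2cafpos, 0.361, 0.295 and 0.653 in icaf and 1.12, 0.259 and 1.27 in vcaf. The m2cafneg libraries were the highest for Col13a1, by 1.44 ± 0.26 over m2cafpos (adjusted p = 0.00333), and Col7a1 showed no such order. Their least differences were 2.52 ± 0.27 and 2.38 ± 0.26 (adjusted p = 1.59e-05 and 1.17e-05), while that of Col24a1 was 1.74 ± 0.31 and its call ended with the epithelial covariate (adjusted p = 0.114). The main chain of fibrillar type I collagen, Col1a1, was not a member, with 48596 CPM in m2cafneg and 101470.0 CPM in m2cafpos against 30943 in icaf and 6882 in vcaf (adjusted p = 0.130 in the weakest pair).

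Enzymes and small proteoglycans that shape collagen also held members. Of 29 tested genes of collagen modification and crosslinking, 2 were higher (6.9%) and none lower. They were Plod1, a lysyl hydroxylase, with a least difference of 0.46 ± 0.11 (adjusted p = 0.00659), and Crtap, of the prolyl 3-hydroxylation complex, with 0.502 ± 0.17 (adjusted p = 0.0434). In the mean contrast 18 were higher, but the list summed to 19195 CPM in icaf, 15957 in m2cafneg, 21411 in m2cafpos and 8672 in vcaf. The call of Crtap ended in 13 of 21 alternatives (adjusted p from 0.0511 to 0.597): both rescalings, edgeR, no filter, the covariate and the omission of any icaf or m2cafneg library, m2cafpos of mouse 31 or vcaf of mouse 27. That of Plod1 ended with the epithelial covariate only (adjusted p = 0.121). Of 14 tested small leucine-rich proteoglycans 2 were higher (14.3%) and none lower, while 10 were higher in the mean contrast. This list summed to 14010 CPM in icaf, 14848 in m2cafneg, 17043.5 in m2cafpos and 2521 in vcaf, so that vcaf stood apart. Fmod, fibromodulin, which binds collagen fibrils, measured 104, 67.8 and 99.4 CPM in m2cafneg, 282, 561 and 258 in m2cafpos, 19.2, 12.3 and 18.3 in icaf and 12.9, 20.1 and 11.9 in vcaf. All m2caf libraries were above the others, and m2cafpos exceeded m2cafneg by 1.94 ± 0.29 (adjusted p = 0.00181); the least difference was 2.37 ± 0.29 (adjusted p = 0.000128). Omd, osteomodulin, passed with a least difference of 0.73 ± 0.25 (adjusted p = 0.0417), and overlapped icaf. It lost its call in 13 alternatives (adjusted p from 0.0543 to 0.454), among them both rescalings, edgeR and the omission of any m2cafpos library or of icaf or m2cafneg of mouse 27 or 31.

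Matricellular proteins, which sit in the matrix and act on cells, gave 6 higher genes among 24 tested (25%) and none lower, with a median of 0.87. They were Spon1, Thbs4, Ccn4, Smoc2, Postn and Tnn. The list summed to 29169 CPM in icaf, 30527 in m2cafneg, 52125 in m2cafpos and 16268 in vcaf, and icaf and m2cafneg overlapped. Thbs4, thrombospondin 4, measured 785, 429 and 1175 CPM in m2cafneg, 1712, 1386 and 2429.9 in m2cafpos, 142, 165 and 209 in icaf and 9.25, 19.4 and 39.4 in vcaf. Postn, periostin, a widely used marker of activated fibroblasts, measured 4706, 2526 and 3843 CPM in m2cafneg, 6348, 5682 and 7096 in m2cafpos, 1557, 959 and 1549 in icaf and 544, 617 and 455 in vcaf. Both were highest in m2cafpos, lower in m2cafneg, lower again in icaf and lowest in vcaf, with no overlap between the sides. Their least differences were 2.11 ± 0.44 and 1.43 ± 0.24 (adjusted p = 0.0038 and 0.00103), and those of Ccn4 and Smoc2 were 1.68 ± 0.32 and 1.61 ± 0.39. With the epithelial covariate the calls of Thbs4, Postn, Ccn4 and Smoc2 ended (adjusted p from 0.131 to 0.562).

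Elastic fibre and microfibril genes gave 4 higher genes among 20 tested (20%) and none lower, with a median of 1.46 for the mean contrast. The list summed to 20319 CPM in icaf, 13015.5 in m2cafneg, 22737 in m2cafpos and 1966 in vcaf. As a sum, m2cafneg was therefore below icaf, and vcaf was lowest. Mfap4, a microfibril-associated glycoprotein, had 1343 to 3733 CPM in the 6 m2caf libraries, 543.5 to 795.0 CPM in icaf and 24.1 to 44.1 CPM in vcaf. Its least difference, against icaf, was 1.13 ± 0.22 (adjusted p = 0.00222), and fibulin 7 (Fbln7) had 1.41 ± 0.25 (adjusted p = 0.00144). The secreted protein gene Fibin and the elastic fibre glycoprotein gene Emilin1 had least differences of 0.98 ± 0.14 and 0.79 ± 0.20. In all 4 genes icaf was well above vcaf, and all 4 calls ended with the epithelial covariate (adjusted p from 0.0566 to 0.372). Of 21 tested cartilage, bone and tendon genes 4 were higher (19%): Itgbl1, Matn2, Mgp and Omd. Matn2, matrilin 2, was the steadiest of them, with 144 to 245 CPM in the m2caf libraries and 36.2 to 77.2 CPM in the others (1.18 ± 0.12, adjusted p = 3.53e-05). Itgbl1, an integrin beta-like secreted protein, had 1.34 ± 0.28 and lost its call with the covariate (adjusted p = 0.367), and Mgp, the matrix inhibitor of calcification, had 0.86 ± 0.32 (adjusted p = 0.0488) and lost it in 11 alternatives (adjusted p from 0.0511 to 0.151), 9 of which left out a library other than m2cafneg of mouse 30 or icaf of mouse 30 or 31.

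Metalloproteinases and their inhibitors gave 7 higher genes among 35 tested (20%) and none lower, with a median of 0.72. All 7 were proteinases: the collagenase Mmp13, the stromelysins Mmp10 and Mmp11, the gelatinase Mmp2, the membrane-bound Mmp14 and Mmp16, and Adamts7. Mmp13 (chr9:7272514-7283331) measured 103, 30.8 and 71.5 CPM in m2cafneg, 173, 179.98 and 283 in m2cafpos, 1.65, 0.373 and 5.702 in icaf and 0.981, 6.67 and 2.37 in vcaf. Mmp10 (chr9:7502352-7510240) measured 19.003, 13.5 and 15.5 CPM in m2cafneg, 20.2, 17.6 and 27.6 in m2cafpos, 6.53, 3.48 and 7.78 in icaf and 0.2002, 0.0185 and 0.176 in vcaf. For Mmp13 icaf and vcaf were both low and m2cafpos was highest, whereas for Mmp10 vcaf was near 0 and icaf lay between. The least differences were 4.06 ± 0.60 for Mmp13 and 1.34 ± 0.25 for Mmp10 (adjusted p = 0.000236 and 0.00192). Mmp11, which fibroblasts around carcinomas are known to express, had 624 to 1743 CPM in the m2caf libraries and 94.1 to 355 CPM in the others (1.52 ± 0.37, adjusted p = 0.00337), and Mmp16 had 8.38 to 25.7 CPM in the m2caf libraries and 1.04 to 5.78 CPM in the others (1.85 ± 0.37, adjusted p = 0.00311). With the epithelial covariate the calls of Mmp13, Mmp10, Mmp11 and Mmp16 ended (adjusted p from 0.0662 to 0.284). Mmp14 (least difference 0.98 ± 0.28, adjusted p = 0.02) also lost its call with edgeR (0.0713), without the filter on low values (0.0701) and without icaf of mouse 27 (0.0911) or m2cafneg of mouse 27 (0.0518) or 31 (0.0571).

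The promoters of Mmp13, Mmp10 and Cdkn2b are shown as examples from the proteinase and cell cycle results. They were picked because they differ in a short motif, so that difference follows from the choice and says nothing of other members. AP-1, the factor family of Fos and Jun, binds TGANTCA, a palindrome that reads the same on both strands. Each line gives the 250 bases before the RefSeq start site in GRCm38.p6, 5′ to 3′ on the gene's strand, with a TGANTCA match in capitals.
Mmp13, chr9:7272264-7272513, plus strand: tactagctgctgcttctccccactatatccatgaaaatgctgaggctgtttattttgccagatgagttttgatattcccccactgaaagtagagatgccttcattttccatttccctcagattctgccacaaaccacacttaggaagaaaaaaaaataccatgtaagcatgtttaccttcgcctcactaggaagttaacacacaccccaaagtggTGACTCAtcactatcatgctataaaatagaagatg
Mmp10, chr9:7502092-7502341, plus strand: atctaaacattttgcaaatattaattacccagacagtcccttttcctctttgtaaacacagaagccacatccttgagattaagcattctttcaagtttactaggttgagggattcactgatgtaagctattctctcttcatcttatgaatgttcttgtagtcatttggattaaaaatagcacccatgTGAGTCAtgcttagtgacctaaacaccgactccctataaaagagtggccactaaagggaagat
Cdkn2b, chr4:89311033-89311282, minus strand: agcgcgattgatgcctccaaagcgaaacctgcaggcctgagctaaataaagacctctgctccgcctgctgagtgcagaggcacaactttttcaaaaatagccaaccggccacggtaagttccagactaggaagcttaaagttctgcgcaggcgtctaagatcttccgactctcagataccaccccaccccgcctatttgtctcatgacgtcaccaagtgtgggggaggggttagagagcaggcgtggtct
The match lies 35 to 29 bases before the start in Mmp13 and 63 to 57 in Mmp10, and the Cdkn2b window holds none. That window has 12 CpG dinucleotides and a GC content of 53.6%, against 1 CpG each and 40.4% and 37.2% for Mmp13 and Mmp10. Across promoters matched by symbol, TGANTCA was present in 33 of 270 higher genes (12.2%) and 14 of 160 lower genes (8.75%), against 647 of 10930 genes tested (5.92%) and 6.75% of all 32851 windows. Of the 5 other motifs searched on both strands, TGTGGT (RUNX) was in 15.9% of higher and 12.9% of tested genes, GGAATG (TEAD) in 14.4% and 13%, TATAAA (core promoter box) in 9.26% and 8.33%, CAGACA (SMAD) in 17% and 16.3%, and GGAAGT (ETS) in 17.4% and 26.1%. A match is a description of letters and not a measured site.

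Wnt pathway genes gave 7 higher genes among 38 tested (18.4%) and 1 lower one (2.63%). The higher ones were the receptor Fzd1, the co-receptors Ror1 and Ror2, and the inhibitors or modulators Dkk3, Frzb, Kremen1 and Nkd2, and the lower one was the receptor Fzd4. The list summed to 3635 CPM in icaf, 2698 in m2cafneg, 2952 in m2cafpos and 622 in vcaf, so as a sum icaf was highest and vcaf lowest. Fzd1 measured 173, 123 and 138 CPM in m2cafneg, 165, 132 and 154 in m2cafpos, 34.2, 30.96 and 40.1 in icaf and 10.7, 11.5 and 8.72 in vcaf. Dkk3 measured 424, 390.2 and 412 CPM in m2cafneg, 729, 802 and 841 in m2cafpos, 112, 105 and 149 in icaf and 84.7, 88.9 and 77.4 in vcaf. Both separated the sides with little spread, with least differences of 2.01 ± 0.15 and 1.75 ± 0.13 (adjusted p = 4.91e-06 and 3.77e-06), and Dkk3 was higher in m2cafpos than in m2cafneg (adjusted p = 0.00112). Nkd2, an inhibitor of Dishevelled, had 237 to 639 CPM in the m2caf libraries and 33.9 to 111 CPM in the others (2.22 ± 0.36, adjusted p = 0.000431), and Frzb, a secreted Wnt antagonist, had 4.097 to 15.98 CPM in the m2caf libraries and 0.152 to 1.19 CPM in the others (2.24 ± 0.37, adjusted p = 0.00076). Fzd4 measured 22.1, 24.5 and 21.3 CPM in m2cafneg, 7.75, 15.6 and 9.13 in m2cafpos, 57.99, 52.9 and 64.7 in icaf and 116, 121 and 83.6 in vcaf, lowest in m2cafpos and highest in vcaf, with a least difference of -1.33 ± 0.21 (adjusted p = 0.000682). The calls of Frzb and Fzd4 ended with the epithelial covariate (adjusted p = 0.06 and 0.163).

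Other signalling lists held few members. Of 26 tested genes of TGF-beta and activin signalling 2 were higher (7.69%): the receptor Tgfbr1, with 46.6 to 56.5 CPM in the m2caf libraries and 24.7 to 34.6 CPM in the others (0.57 ± 0.11, adjusted p = 0.00193), and Lrrc15, a membrane protein that TGF-beta is known to induce in fibroblasts. Lrrc15 measured 905, 355 and 790.3 CPM in m2cafneg, 1798, 1216 and 1969 in m2cafpos, 121, 65.6 and 153 in icaf and 21.9, 22.2 and 32.9 in vcaf. Its order was highest in m2cafpos and lowest in vcaf, with a least difference of 2.56 ± 0.36 (adjusted p = 0.000317), and both calls ended with the epithelial covariate (adjusted p = 0.0645 for Tgfbr1 and 0.092 for Lrrc15). None of 21 BMP and GDF genes and none of 15 Notch genes was a member. Of 11 hedgehog genes Gas1, a surface co-receptor for hedgehog ligands, was higher (0.86 ± 0.26, adjusted p = 0.0134), with the call ended by the covariate (adjusted p = 0.51).

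Among 41 tested growth factors and receptors 3 were higher (7.32%) and 1 was lower (2.44%). Mdk, the heparin-binding growth factor midkine, measured 154, 324 and 161 CPM in m2cafneg, 191, 250 and 224 in m2cafpos, 21.1, 36.8 and 38.8 in icaf and 4.97, 6.34 and 6.53 in vcaf. Fgf21, a fibroblast growth factor best known as a hormone, measured 10.5, 5.31 and 5.59 CPM in m2cafneg, 15.1, 14.9 and 14.7 in m2cafpos, 0.228, 1.14 and 1.03 in icaf and 0.1001, 0.407 and 0.4704 in vcaf. For Mdk icaf lay between the m2caf and vcaf levels, and for Fgf21 icaf and vcaf were both at about 1 CPM or below. The least differences were 2.65 ± 0.28 and 2.16 ± 0.27 (adjusted p = 3.98e-05 and 0.000124). Vegfc, which drives the growth of lymphatic vessels, had 18.5 to 24.4 CPM in the m2caf libraries and 2.16 to 12.1 CPM in the others (1.29 ± 0.29, adjusted p = 0.00618). The call of Vegfc ended with the epithelial covariate (adjusted p = 0.445).

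Transcription factors of mesenchymal tissue were split. Of 54 tested, 4 were higher (7.41%) and 5 lower (9.26%). Msx1, a homeobox factor of limb and craniofacial mesenchyme, measured 180.1, 84.5 and 158 CPM in m2cafneg, 141, 94.8 and 139.8 in m2cafpos, 20, 18.97 and 28.5 in icaf and 31.3, 23.3 and 19.5 in vcaf. Alx4, a homeobox factor of the same tissues, measured 25.5, 30.3 and 17.1 CPM in m2cafneg, 25.8, 22.7 and 27.2 in m2cafpos, 4.502, 3.15 and 4.49 in icaf and 2.32, 1.92 and 0.823 in vcaf. All m2caf libraries exceeded all others for both genes, with least differences of 2.297 ± 0.28 and 2.301 ± 0.25 (adjusted p = 4.89e-05 and 5.22e-05). The E protein gene Tcf4 had 373 to 644 CPM in the m2caf libraries and 193 to 307 CPM in the others (0.81 ± 0.18, adjusted p = 0.00168). The tendon factor gene Mkx was weak, with 2.6995 to 5.24 CPM in the m2caf libraries and 0 to 2.35 CPM in the others (0.93 ± 0.28, adjusted p = 0.0197), and lost its call with edgeR (0.166), without the filter (0.067), with the covariate (0.163) and without m2cafneg of mouse 31 (0.0567) or vcaf of mouse 27 (0.0593) or 30 (0.0772).

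The lower factors were 3 early B cell factors, Ebf1, Ebf2 and Ebf3, which also act in adipose and vascular mesenchyme, and the homeobox factors Meox2 and Prrx1. Ebf2 measured 43.97, 42.05 and 35.1 CPM in m2cafneg, 27.7, 36.9 and 29.8 in m2cafpos, 109, 127 and 103 in icaf and 114, 105 and 62.1 in vcaf. Ebf1 measured 289.6, 345 and 193 CPM in m2cafneg, 256, 222 and 268 in m2cafpos, 574, 524 and 469 in icaf and 928, 889 and 619 in vcaf. For both genes every m2caf library was below every other library, and the least differences were -1.15 ± 0.20 and -0.95 ± 0.20 (adjusted p = 0.000803 and 0.00416). Ebf3 had 1.26 to 1.86 CPM in the m2caf libraries and 2.74 to 7.89 CPM in the others, with a least difference of -1.02 ± 0.27 (adjusted p = 0.0167), and Prrx1 had -0.73 ± 0.17 (adjusted p = 0.00601). The calls of Ebf1, Ebf2, Ebf3 and Prrx1 ended with the epithelial covariate (adjusted p from 0.0811 to 0.353). Prrx1 also lost its call with each rescaling and with edgeR (adjusted p from 0.344 to 0.451), and Ebf3 without the filter (0.0581) and without icaf of mouse 30 (0.0713) or m2cafpos of mouse 30 (0.0537) or 31 (0.0576). Of 19 tested Hox genes Hoxa7 alone was a member, lower by a least difference of -0.91 ± 0.24 (adjusted p = 0.0146), and its call ended with TMM scaling (0.0523), edgeR (0.0649), the covariate (0.185) and without m2cafneg of mouse 31 (0.066).

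Adhesion and axon guidance genes gave 8 higher genes among 49 tested (16.3%) and 1 lower one (2.04%). They included the guidance receptors Robo2 and Unc5c, the ligands Slit2, Sema3a and Sema7a, the ephrin pathway genes Efna2 and Epha4, and cadherin 11 (Cdh11). Cdh11, the mesenchymal cadherin, measured 149, 123 and 129 CPM in m2cafneg, 226, 193 and 216 in m2cafpos, 28.9, 31.3 and 34.9 in icaf and 4.58, 3.49 and 5.8996 in vcaf. It was lowest in vcaf, higher in icaf, higher in m2cafneg and highest in m2cafpos, with no overlap between these 4 levels. Robo2, a receptor of Slit ligands, measured 15.6, 5.35 and 10.8 CPM in m2cafneg, 9.25, 5.67 and 9.18 in m2cafpos, 0.665, 0.491 and 0.634 in icaf and 0.2402, 0 and 0.549 in vcaf. Robo2 was under 1 CPM in every icaf and vcaf library, so it passed the filter through the m2caf libraries alone. Sema7a, a membrane-anchored semaphorin, measured 22.3, 11.3 and 23.5 CPM in m2cafneg, 32.7, 20.98 and 31.6 in m2cafpos, 0.646, 0.0786 and 1.54 in icaf and 3.84, 3.92 and 4.19 in vcaf, with vcaf above icaf and both below every m2caf library. The least differences were 2.04 ± 0.15, 2.47 ± 0.31 and 1.94 ± 0.32 (adjusted p = 3.86e-06, 0.000104 and 0.000561). Unc5c, a netrin receptor, had 2.15 ± 0.34 (adjusted p = 0.000681; 0.187 with the covariate). The lower gene was Sema6d (-0.74 ± 0.24, adjusted p = 0.0388), whose call ended with the covariate (0.461), without the filter (0.097) and without icaf of mouse 30 (0.0641) or 31 (0.143), m2cafneg of mouse 27 (0.107) or 30 (0.0917) or vcaf of mouse 30 (0.0511). Integrins and actomyosin genes gave 1 higher gene each, Itgbl1 of 20 and Palld of 27 tested. Palld, the actin-bundling protein palladin, had 303 to 642 CPM in the m2caf libraries and 114 to 231 CPM in the others (1.19 ± 0.24, adjusted p = 0.00308). The contractile gene Acta2 was not a member, with 63.5 CPM in m2cafneg, 218 in m2cafpos, 39.6 in icaf and 1921 in vcaf.

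**Figure D3:**
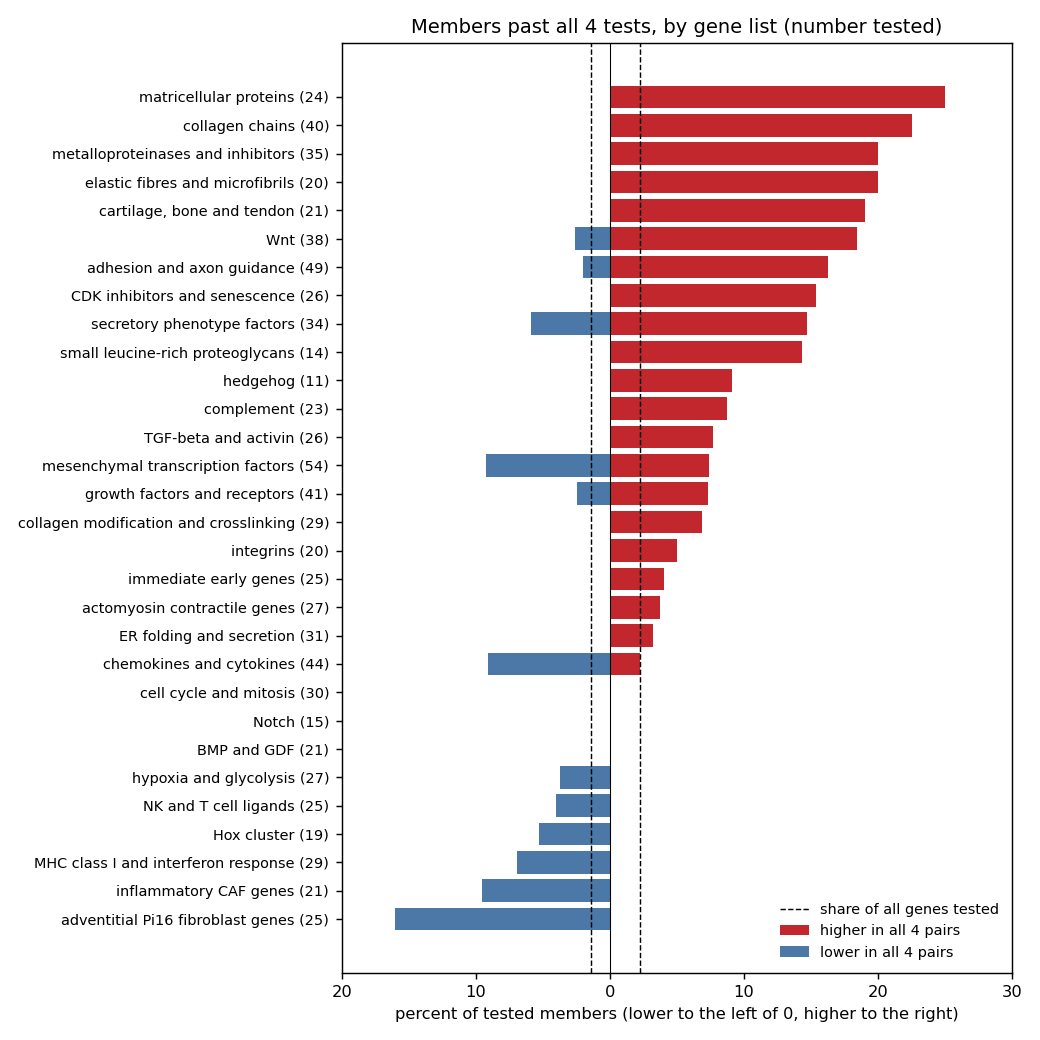
Bars give the percent of tested members of each gene list that were higher (red, to the right of 0) or lower (blue, to the left) in all 4 pairs, with the number tested in brackets; dashed lines mark the 2.25% and 1.43% of all genes tested. Matricellular, collagen, elastic fibre and metalloproteinase lists reach 20% to 25% on the higher side, and the adventitial fibroblast list reaches 16% on the lower side.

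On the lower side the clearest gene was Tubb4a (chr17:57080066-57087782), a beta tubulin known mainly from the brain, which measured 4.75, 1.08 and 1.08 CPM in m2cafneg, 1.25, 1.76 and 1.07 in m2cafpos, 140.3, 141 and 94.9 in icaf and 61.2, 42.7 and 51.3 in vcaf. Mustn1 (chr14:30879200-30881610), a small nuclear protein of muscle and skeleton, measured 6.44, 10.9 and 5.89 CPM in m2cafneg, 0.867, 2.76 and 1.71 in m2cafpos, 52.3, 93.7 and 56.01 in icaf and 107, 180.1 and 98.6 in vcaf. All m2caf libraries were below the others, as the choice of the leading genes required, and for Mustn1 m2cafpos was below m2cafneg (adjusted p = 0.00462). The lower mean of icaf and vcaf was 22.5 times the higher m2caf mean for Tubb4a and 8.71 times for Mustn1. The least differences were -4.16 ± 0.34 and -2.96 ± 0.32 (adjusted p = 1.92e-06 and 4.91e-05). Sytl2, an effector of Rab27 in vesicle traffic, had 0.627 to 2.52 CPM in the m2caf libraries and 11.9 to 23.6 CPM in the others (-2.44 ± 0.28, adjusted p = 2.87e-05).

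Kcnj8 (chr6:142564837-142571614) and Abcc9 (chr6:142587862-142702315), neighbouring genes that encode the pore and the regulatory subunit of the potassium channel of vessel-wall cells gated by ATP, were both lower. Kcnj8 measured 12.7, 29.02 and 23.03 CPM in m2cafneg, 16.3, 26.4 and 14.4 in m2cafpos, 107, 73.04 and 141 in icaf and 1178, 793 and 874 in vcaf. Abcc9 measured 8.14, 13.9 and 14.3 CPM in m2cafneg, 3.36, 10.5 and 6.51 in m2cafpos, 40.6, 32.1 and 59.8 in icaf and 812, 725 and 577 in vcaf. Both were by far highest in vcaf, but icaf too was above all 6 m2caf libraries. The least differences, set by icaf, were -2.28 ± 0.31 and -1.78 ± 0.33 (adjusted p = 0.000249 and 0.00167), and the call of Abcc9 ended with the epithelial covariate (adjusted p = 0.132). These genes are also pericyte markers, and with Vtn they were the 3 lower members among 18 pericyte markers tested (16.7%). The 18 markers together summed to 38378 to 61023 CPM in vcaf, 394 to 810 CPM in icaf, 613 to 1433 CPM in m2cafneg and 776 to 1018 CPM in m2cafpos, so as a sum they did not stand higher in icaf than in the m2caf populations. The pericyte marker Rgs5 averaged 63.2 CPM in icaf, 157 in m2cafneg and 43.5 in m2cafpos against 41419 in vcaf.

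Other strongly lower genes act in adhesion, vessel tone and coagulation. Lims2 (PINCH2), an adaptor of the integrin-linked kinase complex, measured 12.7, 29.1 and 11.9 CPM in m2cafneg, 4.71, 11.6 and 3.96 in m2cafpos, 169, 237 and 237 in icaf and 69.4, 87.9 and 61.2 in vcaf. Procr, the endothelial protein C receptor, also a marker of some stem and progenitor cells, measured 10.6, 14.5 and 9.63 CPM in m2cafneg, 8.002, 10.6 and 9.39 in m2cafpos, 71.5, 150.3 and 111 in icaf and 39.6, 58.1 and 36.97 in vcaf. In both, icaf was highest, vcaf lay between and all m2caf libraries were lowest. The least differences were -2.06 ± 0.36 and -1.86 ± 0.25 (adjusted p = 0.000816 and 0.000113), and that of Plce1, phospholipase C epsilon, was -1.49 ± 0.22 (adjusted p = 0.00032). Agtr1a (angiotensin II receptor), Chst1 (a sulfotransferase), Dmpk (a kinase of muscle), Lrrc8c (an anion channel subunit), Pde1a (a cyclic nucleotide phosphodiesterase) and Aoc3 (an amine oxidase of vessel walls) had least differences from -2.27 to -1.41. Their adjusted p was 0.0119 or less, and all 6 calls ended with the epithelial covariate (adjusted p from 0.0856 to 0.761). The call of Aoc3 also ended without m2cafneg of mouse 31 (adjusted p = 0.0555).

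**Figure D4:**
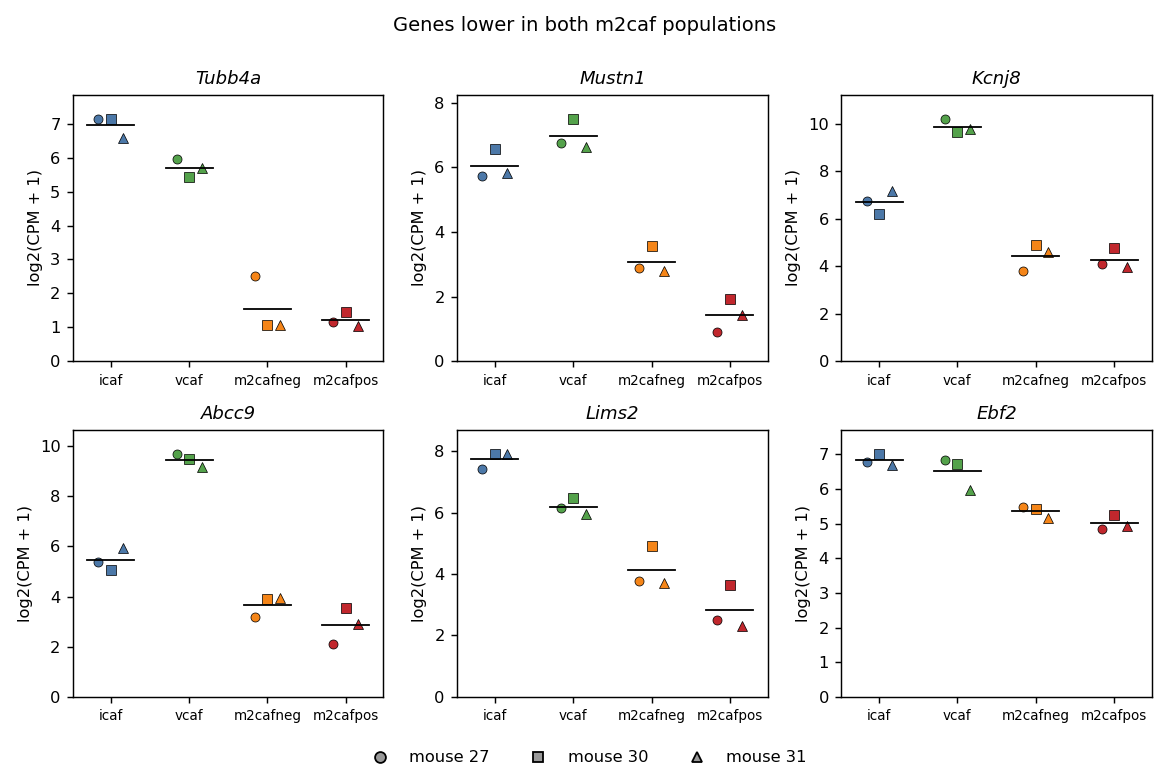
Each panel shows 1 lower gene as log2(CPM + 1) in the 12 libraries, by population; circles, squares and triangles are mice 27, 30 and 31 and the bar is the mean of 3. All 6 m2caf libraries lie below all 6 icaf and vcaf libraries in each panel, an order that the choice of the leading genes required. The highest population is vcaf for Kcnj8 and Abcc9, and icaf for Tubb4a and Lims2.

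Inflammatory signals held more lower than higher members. Of 44 tested chemokines, cytokines and receptors 4 were lower (9.09%) and 1 was higher (2.27%). The list summed to 6407 CPM in icaf, 3302 in m2cafneg, 4026 in m2cafpos and 2405 in vcaf, so as a sum vcaf was lowest. Il6, an inflammatory cytokine, measured 22.9, 24.7 and 18.4 CPM in m2cafneg, 17.2, 25.9 and 15.9 in m2cafpos, 62.5, 41.8 and 36.8 in icaf and 121, 117 and 81.3 in vcaf. Cxcl1, a chemokine that attracts neutrophils, measured 179.9, 133 and 129 CPM in m2cafneg, 95.4, 75.4 and 77.6 in m2cafpos, 442, 267 and 260.4 in icaf and 378, 450.2 and 402 in vcaf. Both were lower in every m2caf library than in any icaf or vcaf library, and Il6 was highest in vcaf. Their least differences were -1.04 ± 0.23 and -1.101 ± 0.20 (adjusted p = 0.00528 and 0.00134). The receptors Il1r1 and Il6st were lower as well (-1.06 ± 0.19 and -0.65 ± 0.16, adjusted p = 0.00138 and 0.00991). With the epithelial covariate the calls of Il6, Cxcl1, Il1r1 and Il6st ended (adjusted p from 0.154 to 0.771). Cx3cl1, the membrane-bound chemokine fractalkine, was higher, with 89.5 to 146 CPM in the m2caf libraries and 15.1 to 66.3 CPM in the others (1.23 ± 0.27, adjusted p = 0.00411). Il6 and Cxcl1 were also the only members among 21 genes of the inflammatory fibroblast list (9.52%), none of which was higher. That list summed to 39060 CPM in icaf, 17704 in m2cafneg, 7675 in m2cafpos and 4729 in vcaf, so here too vcaf was lowest as a sum.

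Of 25 tested genes of adventitial Pi16-positive fibroblasts 4 were lower (16%) and none higher: Procr, Ebf1, Anxa3 and Cd248. In the mean contrast 8 genes of the list were higher and 11 lower. The list summed to 36945 CPM in icaf, 10627 in m2cafneg, 13523 in m2cafpos and 3797 in vcaf. As a sum it was thus highest in icaf, with both m2caf populations above vcaf. Anxa3, an annexin, and Cd248, endosialin, had least differences of -0.76 ± 0.27 and -0.72 ± 0.23 (adjusted p = 0.0398 and 0.0153) with icaf far above the rest, at 533 to 1020 CPM for Anxa3. Both calls ended with each rescaling and with edgeR (adjusted p from 0.301 to 0.64), and when 1 library was left out: icaf or m2cafpos of mouse 27, m2cafneg of mouse 27 or 31 or any vcaf library for Anxa3 (0.0504 to 0.143), and m2cafpos of mouse 31 (0.0553) or vcaf of mouse 27 (0.0648) for Cd248. Anxa3 also lost its call without the filter (0.109). Among 29 genes of MHC class I and the interferon response Ifitm3 and Psmb10 were lower (6.9%, -0.596 ± 0.14 and -0.36 ± 0.09, adjusted p = 0.00476 and 0.0109), and both calls ended with each rescaling, edgeR and the covariate (adjusted p from 0.0546 to 0.302). The call of Psmb10 also ended without m2cafneg of mouse 31 (0.0513). Of 25 ligands for NK and T cells Cd200 was lower (-0.897 ± 0.28, adjusted p = 0.0316) and lost its call in 11 alternatives (adjusted p from 0.0586 to 0.181), among them both rescalings, edgeR and the omission of icaf or m2cafneg of mouse 27 or 30 or vcaf of mouse 30 or 31. Of 23 complement genes 2 were higher (8.7%): the scavenger collectin Colec12, with 267 to 309 CPM in the m2caf libraries and 43.8 to 124 CPM in the others (1.32 ± 0.12, adjusted p = 1.43e-05), and Cd59a (0.83 ± 0.30, adjusted p = 0.0459), which lost its call in 10 alternatives (adjusted p from 0.0516 to 0.161), among them the omission of any m2cafpos or vcaf library or of m2cafneg of mouse 27 or 31.

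Among the lists left, 27 hypoxia and glycolysis genes tested held 1 lower member, the glycolytic enzyme gene Pfkp (-0.600 ± 0.10, adjusted p = 0.00077), whose call ended with edgeR (0.0573) and the covariate (0.115). Of 31 genes of protein folding and secretion Creb3l2, a transcription factor of the secretory pathway, was higher (0.42 ± 0.12, adjusted p = 0.0205), and its call ended with each rescaling, edgeR, the covariate and the omission of icaf of mouse 27 or 30, m2cafneg of mouse 27 or 31 or vcaf of mouse 31 (adjusted p from 0.055 to 0.556). Of 25 immediate early genes Egr2 alone was a member, with 379.9 to 493 CPM in the m2caf libraries and 115 to 222 CPM in the others (1.097 ± 0.14, adjusted p = 7.07e-05), and it kept its call in every alternative run. Apart from pericyte markers, the marker lists of other cell types gave no member: 20 epithelial, 17 macrophage, 20 endothelial, 6 lymphocyte, 5 neutrophil, 8 adipocyte, 10 Schwann cell, 5 muscle, 5 erythroid and 2 mesothelial markers tested. Summed macrophage, neutrophil and mesothelial markers were, like the epithelial ones, highest in m2cafneg and vcaf, and markers split in this way could not be members.

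The genes whose values over the 12 libraries lay closest to those of Cdkn2b, each centred on its own mean, were Tmem132e, Spon1, Tnfrsf26, Cd40, Cpxm2, Shc4, Amn and Gask1b. Their root mean square differences from Cdkn2b were 0.374 to 0.464 on the log2 scale. All 8 were higher members, which follows from their choice by likeness to Cdkn2b. Cd40, a co-stimulatory receptor of the tumour necrosis factor receptor family, measured 33.3, 12.01 and 30.2 CPM in m2cafneg, 34.4, 19.8 and 26.7 in m2cafpos, 3.49, 0.708 and 3.29 in icaf and 2.38, 3.07 and 2.705 in vcaf. Shc4, an adaptor of receptor tyrosine kinases, measured 77.7, 33.8 and 56.1 CPM in m2cafneg, 72.1, 47.1 and 50.98 in m2cafpos, 2.72, 1.77 and 5.56 in icaf and 8.39, 8.58 and 5.57 in vcaf. Gask1b, a secreted Golgi-associated protein, measured 98.1, 70.5 and 105 CPM in m2cafneg, 162, 203 and 185 in m2cafpos, 22.6, 15.3 and 32.6 in icaf and 10.4, 12.9 and 12.02 in vcaf. Gask1b was higher in m2cafpos than in m2cafneg (adjusted p = 0.00867). Least differences were 2.697 ± 0.41 for Cd40, 2.68 ± 0.34 for Shc4, 1.96 ± 0.23 for Gask1b and 2.72 ± 0.25 for the transmembrane protein gene Tmem132e, and the call of Cd40 ended with the epithelial covariate (adjusted p = 0.0701).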

How the data were processed

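RNA-seq was done on 12 libraries, 4 sorted populations from each of 3 mice. The authors deposited 1 table of CPM values per Ensembl gene. Per the submitters' processing notes, bcl2fastq, DRAGEN and the mouse genome mm10 were used, with no versions. Not given in the sources used here are the counting tool, its use of strand and the annotation release, so values of overlapping genes and close paralogs are less certain. The table had 55774 lines, of which 287 repeated an identifier with the same values, leaving 55487 genes, and 19288 of these had no read. All values were whole multiples of what 1 read is worth (0.0181 to 0.0228 CPM, 100% whole within 0.001 read), which gave the depths and the whole reads used with edgeR. Depth is 43898839 to 55363203 reads per library, so weak genes such as Cdkn2a carry counting error that the replicate spread includes. Coordinates, 1-based, come from GENCODE M21 (GRCm38), which held 99.5% of the identifiers, and promoter sequences from RefSeq (GRCm38.p6).

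A gene was kept if 3 or more libraries reached 1 CPM (15456 genes). Log2(CPM + 1) values, computed from the deposited CPM without rescaling, were fitted with limma 3.58.1 in R 4.3.3 as 4 population means over all 12 libraries, with a trended prior (8 residual and 4.29 prior degrees of freedom). The tests are two-sided, with Benjamini-Hochberg adjustment over all kept genes within each contrast. The script was tested on simulated data. Alternatives were pseudocounts of 0.25 and 4 CPM, no filter, a filter of 5 CPM, median-of-ratios and TMM scaling, mouse as a replicate block, edgeR 4.0.16 quasi-likelihood tests, the log2 sum of epithelial markers as a covariate, a least difference of 1 and leaving out each library. The mouse numbers in the labels mark the animal: over 18 same-mouse pairs of libraries, deviations from population means had a median correlation of 0.293 (0.0843 to 0.452), against -0.149 for other pairs.

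Genes named are the 14 higher and 14 lower ones with the largest least difference, no overlap and a mean of at least 10 CPM in each population of the higher side (numbered gene models left out), up to 4 members of each list per direction, a fixed set with Cdkn1a, Col1a1, Postn, Acta2 and the genes of the sort, and the 8 genes nearest to Cdkn2b. Other list members are named only where a list's members are counted out, and the genes of the closing lists were chosen after their values were seen. The comparison and the lists were chosen with earlier results of these data known. List counts are descriptions, with no test of the list, and some members that they include are not reported here by name.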

Additional observations from a re-analysis of the deposited data

How the results depend on the processing

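No named gene changed direction in the alternatives run, but the mean contrast had more lower than higher genes as deposited and more higher than lower ones with each rescaling and with edgeR. The count of higher genes was 277 to 411, apart from 82 with the epithelial covariate, and 283 to 388 with 1 library left out. The count of lower genes moved from 221 to 145 with no filter, 116 with median-of-ratios scaling, 111 with TMM scaling, 106 with edgeR and 30 with the epithelial covariate, and was 136 to 226 with 1 library left out, lowest without icaf of mouse 30 (136) or 27 (144). For the mean contrast the lower genes moved from 4753 to 1744, 1746 and 1493 with median-of-ratios scaling, TMM scaling and edgeR, and the higher ones from 1662 to 2441, 2424 and 2408. A least difference of 1 left 189 higher and 43 lower genes in all 4 pairs, and 648 and 598 in the mean contrast, by its own construction. With mouse as a replicate block 411 genes were higher and 302 lower, and no named call ended. Cdkn2b kept its call in all alternatives (least difference 2.55 to 3.28). Cdkn2a lost it with edgeR (2.44, adjusted p = 0.0637), with the covariate (0.37, adjusted p = 0.631) and without any of 5 libraries, with a least difference of 0.6356 to 0.9995 when 1 library was left out. Of 101 named members 81 kept their call in all alternatives other than the covariate, which ended 57, and 40 kept it in all. Apart from changed scaling and fewer samples, the cause of these moves was not tested. Weak genes are limited by depth, since 3 reads are 0.0542 to 0.0683 CPM. The p values measure the spread between libraries of 3 animals.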

Other observations

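Some groups of genes were noticed among the members after their values were seen, so they are given as values with no test. Their counts come from the main fit alone and were not taken under the alternatives. Over all genes the count of lower members fell from 221 to 116 with median-of-ratios scaling, 111 with TMM scaling and 106 with edgeR. Of all genes tested, 2.25% were higher and 1.43% lower in all 4 pairs. In the mean contrast 10.8% were higher and 30.8% lower. Of 12 tested genes of caveolae and EHD proteins, which shape small pits of the plasma membrane, 5 were lower in both m2caf populations than in icaf and vcaf and none higher: Cav1, Cavin2, Ehd1, Ehd2 and Pacsin2, with a median of -1.02 for the mean contrast over all 12 against -0.20 for all genes, and 10 of the 12 lower in that contrast. Cav1, caveolin 1, averaged 74.6 CPM in m2cafneg and 47.1 in m2cafpos, against 186 in icaf and 258 in vcaf (least difference -1.27, adjusted p = 0.00369). Ehd2, a membrane-bending ATPase of the caveolar neck, averaged 616 and 460 CPM against 1067 and 1455 (-0.80, adjusted p = 0.00371). Of 13 tested genes of the integrin-linked kinase complex and tensins 4 were lower and none higher: Lims2, Rsu1, Tns1 and Tns2. Tns1, tensin 1, which ties actin to integrin adhesions, averaged 64.6 and 74.3 CPM against 190.0 in icaf and 328 in vcaf (-1.35, adjusted p = 1.1e-05). Of 18 tested regulators of contraction, potassium channels and cyclic GMP, 9 were lower and none higher, among them Kcnj8, Abcc9, Atp2b4, a calcium pump (30.4 CPM in icaf, 10.6 in m2cafneg, 6.66 in m2cafpos and 54.1 in vcaf), and Grk5, a receptor kinase (24.5, 8.60, 10.5 and 39.2 CPM in the same order). The non-members Ednra, Ednrb, Gucy1a1, Gucy1b1, Pde5a and Prkg1 averaged higher in both m2caf populations than in icaf, with vcaf highest. The non-members Adra1d, Pde3a and Rgs5 did not. On the higher side, 24 tested genes of retinoid handling held 4 higher members, among them Crabp1, Stra6 and Rarres1. The list's median for the mean contrast was 0.09, with 8 genes higher and 7 lower, so its other genes went both ways. Rarres1, a retinoic acid receptor responder gene, averaged 1.11 CPM in icaf, 15.2 in m2cafneg, 13.1 in m2cafpos and 0.556 in vcaf (2.72, adjusted p = 0.000599).

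Members were also compared by position. Among 13444 pairs of tested genes that neighbour each other without overlap, both were higher in 17 pairs and both lower in 11. Of all single genes tested 2.25% were higher and 1.43% lower. Whether neighbours share a call more often than other pairs was not tested. The higher pairs include Cdkn2a with Cdkn2b, by which the comparison was chosen. Others are Col6a2 with Col6a1, Fmo1 with Fmo2, and Sema7a with Stra6, whose ends lie 100922 bases apart on chromosome 9. The lower pairs include Kcnj8 with Abcc9 and the anion channel subunit genes Lrrc8b and Lrrc8c. Reads shared between neighbours were not tested, since the strand of counting is not given in the sources used here.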
